A study of Mus musculus with 16 samples.

Results

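H19, Igf2, Rasgrf1 and Zdbf2 are imprinted mouse loci at which the copy inherited from the father is known to carry the DNA methylation. Their CpGs were taken by position alone, from 10 kb upstream of the start to the end of H19 and Igf2 on chromosome 7, and from 40 kb upstream to the end of Rasgrf1 on chromosome 9 and Zdbf2 on chromosome 1 (GENCODE M21, mm10). These windows held 311 of the 1203687 measured CpGs (0.0258%), with 68 at H19, 60 at Igf2, 89 at Rasgrf1 and 94 at Zdbf2.

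Methylation was measured by target capture bisulfite sequencing (tcBS-seq), in which chosen genomic regions are pulled out with RNA probes and unmethylated cytosines are converted before sequencing. The cells were immortalised mouse embryonic fibroblasts (MEFs) of the inbred strain C57BL/6J, taken from a pair of E13.5 embryos of the same parents. Each of the parental lines MEF-1 and MEF-2, a mixed population of cells from 1 embryo, was sequenced once and also gave 7 clonal lines, each grown from 1 sorted cell, which makes 16 libraries. Parental and clonal lines of 1 embryo form a family, and a difference between families is a difference between the descendants of 2 embryos, so that family, embryo and the sex of the embryo cannot be told apart. All groups were untreated and share strain and age. Because the strain is inbred, no read can be assigned to the maternal or the paternal copy.

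Imprinted genes are expressed from 1 parental copy, and their differentially methylated regions (DMRs) differ between the copies. At H19, which makes a non-coding RNA from the maternal copy, the insulator protein CTCF binds the unmethylated maternal imprinting control region upstream of the gene, whereas methylation of the paternal copy keeps CTCF away and leaves the enhancers to Igf2, a growth factor gene. Rasgrf1, a Ras guanine nucleotide exchange factor, and Zdbf2, a zinc finger gene, are expressed mainly from the paternal copy and lie downstream of their own paternally methylated regions. A CpG with 1 methylated and 1 unmethylated copy in every cell has a level of 50%.

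The level of a CpG was the percentage of its calls that were methylated, where a call is 1 read over 1 CpG. Library totals ranged from 59243669 to 90633091 calls. The median coverage of the 311 CpGs was 22 to 35 reads per library, against 32 reads over all CpGs and libraries. Partly methylated runs were stretches of at least 5 consecutive CpGs with a smoothed level of 20 to 80% in at least 1 parental library, and the leading run of a locus was the longest one, in CpGs, with a pooled level of 20 to 80% in both parental libraries. Intervals on single libraries are 95% Wilson intervals and cover counting error only. They treat every call as independent, although neighbouring CpGs can lie on the same read, so the intervals of pooled runs are too narrow.

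The windows held 13 runs with 127 of the 311 CpGs (40.8%, against 29.2% of all CpGs). H19, Igf2 and Rasgrf1 had 3 runs each and Zdbf2 had 4. In both parental libraries 8 of the 13 were partly methylated, which was the case for all 3 runs of H19 and of Igf2 but for only 1 run each of Rasgrf1 and Zdbf2. H19 had the largest share of its CpGs in runs, 58 of 68, against 17 of 60 at Igf2, 21 of 89 at Rasgrf1 and 31 of 94 at Zdbf2.

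The upstream ends of the windows had few measured CpGs. The most distant measured CpG upstream of H19 lay 2928 bp from its start, and in the remaining 7072 bp of the window the 16 library tables held 14 to 41 calls each. For Rasgrf1 the most distant CpG lay 9431 bp upstream. The remaining 30569 bp, the part in which its imprinting control region is known to lie, held 75 to 182 calls per library at 34 to 55 positions, of which 0 to 5 had 10 reads. The levels given for Rasgrf1 therefore come from the promoter-proximal DNA and the gene body and say nothing of its control region. For Zdbf2, 6416 bp at the distal end were not covered by the series table. Its last measured CpG, at 63274406, lay 1141 bp downstream of the start, so nearly all of its gene body, which ends at 63314576, was not measured. The last measured CpG of Rasgrf1 lay 83729 bp downstream of its start, and the rest of that gene was not measured either. Likewise, the last measured CpG of Igf2 lay 10087 bp downstream of its start, at 142656729. The rest of Igf2, which ends at 142650766, had no measured CpG, so the levels given for Igf2 say nothing of that part.

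The upstream region of H19 was described first by its sequence, because the CTCF sites define it. A core of the CTCF motif, spelt CCGC, any 2 bases, GG, any 1 base and GGCAG, was searched on both strands and found 4 times in the H19 window, all on the strand of H19, and not once in the windows of Igf2, Rasgrf1 and Zdbf2. Of 32851 RefSeq promoters (300 bp) 40 held a match (0.122%), as did 58 of 41296 windows of 989 bp centred on the partly methylated runs of the genome (0.140%). A match is a description of the letters and not a measured binding site. The 4 matches of the GRCm38 reference are given 5′ to 3′ on the strand of H19, with the motif in capitals and 10 bases on either side.
chr7:142580299-142580332, minus strand: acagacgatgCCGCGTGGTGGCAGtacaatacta
chr7:142580754-142580787, minus strand: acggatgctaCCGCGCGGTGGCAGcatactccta
chr7:142581780-142581813, minus strand: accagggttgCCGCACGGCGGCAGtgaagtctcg
chr7:142582024-142582057, minus strand: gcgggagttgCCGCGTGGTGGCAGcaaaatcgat
The 2 matches nearer to the gene held 2 and 3 measured CpGs, and the 2 farther ones, beyond the last measured CpG, held none.

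The leading run of H19 covered these 2 nearer matches. It spanned 36 CpGs and 989 bp (chr7:142580083-142581071), lay 1940 to 2928 bp upstream of the gene in intergenic sequence, and was longer, in CpGs, than nearly all of the 41296 runs of the genome, of which 99.6% had as many CpGs or fewer. Its level was 51.5% in the MEF-1 parental library (interval 48.5 to 54.5%, 1071 calls) and 43.4% in the MEF-2 parental library (40.9 to 46.0%, 1473 calls). MEF-1 lines 1 to 7 had 37.8, 48.5, 36.6, 50.4, 50.7, 46.4 and 35.7%. MEF-2 lines 1 to 7 had 48.0, 49.2, 53.7, 49.9, 47.9, 49.5 and 59.7%. All 14 clonal lines thus lay between 35.7 and 59.7% in the level pooled over the run, which does not describe its parts. Over 6 of the CpGs MEF-1 line 7 had 11.1%, and over 4 others the MEF-2 lines had 93.1% or more.

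The clonal mean was 43.7% ± 6.75 (SD, n = 7) in MEF-1 and 51.1% ± 4.25 (n = 7) in MEF-2, a MEF-1 minus MEF-2 difference of -7.44 percentage points. The families overlapped, with MEF-1 lines 1, 3, 6 and 7 below every MEF-2 line. The difference did not pass the test (exact permutation test of 7 against 7 lines, two-sided p = 0.0385, adjusted p = 0.0584 over all 41296 runs), and leaving out MEF-1 line 2, 4 or 5 moved it past the threshold, at -8.23, -8.55 and -8.60 points. The coverage of chromosome 7 relative to the other autosomes was lowest in the same 4 MEF-1 lines. It was 0.832, 0.816, 0.899 and 0.841 times the reference level (the median MEF-2 clonal line) in MEF-1 lines 1, 3, 6 and 7, from 0.945 to 1.03 in the other 3 MEF-1 lines, and from 0.969 to 1.02 in the MEF-2 libraries. Without the 4 lines, which also had the lowest H19 levels of MEF-1, the difference was -1.30 points (adjusted p = 0.776, exact permutation test). A link between level and coverage was not tested.

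**Figure D1:**
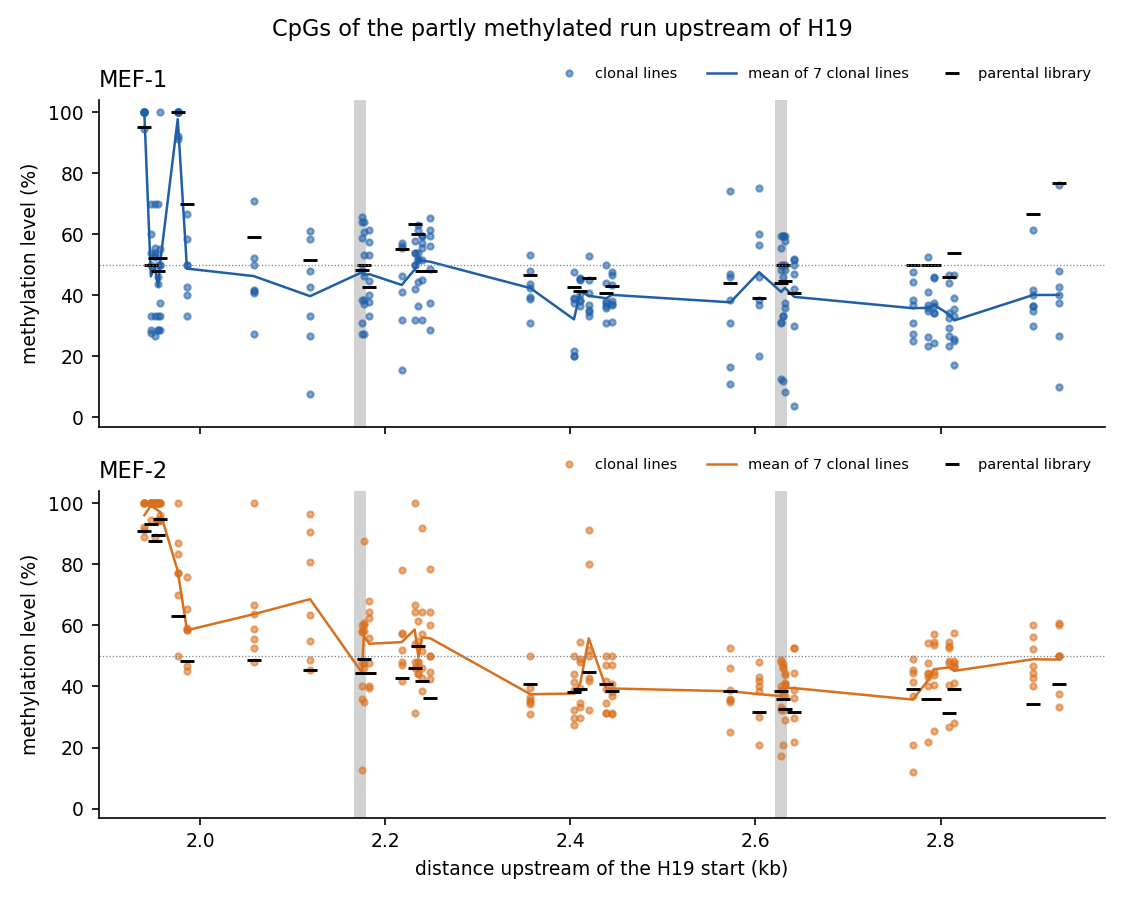
Methylation level (%) of each CpG of the leading H19 run against the distance upstream of the H19 start (kb), with points for the 7 clonal lines of a family, a line for their mean, dashes for the parental library, grey bars at the CTCF motif matches and a dotted line at 50%. At the gene end (left) 4 CpGs are at 93.1% or more in the pooled MEF-2 lines and at 32.2 to 66.2% in those of MEF-1, while the CpG mean at 142580119, the next one upstream, is higher in MEF-1.

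Along the run, the levels of neighbouring H19 CpGs were close to each other. In the 14 clonal lines 46.8% of its CpG levels lay at 40 to 60%, against a median of 18.7% over all runs, and 99.7% of runs were at or below this share. Levels under 10% or of 90% and more made up 11.5% of its CpG levels, against a median of 51.3%. The SD between CpGs within a line was 19.8 points, with a median of 32 over all runs, and the neighbour similarity, which counts the lines whose nearest CpG had a level less than 10 points away, was a share of 0.776 against 0.393. A run of the genome was thus more often a mixture of CpGs near 0 and near 100%, and the H19 run a stretch of CpGs near the middle. The H19 run was also denser, with a mean of 6.31 CpGs within 100 bp against a median of 3.4 over all runs. Close CpGs can share reads, and the effect of this on evenness was not tested. Fidelity, scored as the share of lines at 0 to 10, 40 to 60 or 90 to 100%, was 0.585 against 0.714, and many of the H19 levels lay from 10 to 40%. The SD between lines of a family, 5.50 points as the mean of both families, was close to the median of all runs, 6.12 points.

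The most even part lay farthest from the gene. The 19 CpGs from 2357 to 2928 bp upstream fell into 3 stretches of 6, 6 and 7 CpGs. Their SD between CpGs within a line was 6.95, 6.10 and 6.93 points, where CpGs this close can share reads and are not independent. In the first of these the MEF-1 lines averaged 39.2% ± 5.17 and the MEF-2 lines 41.9% ± 7.48 (SD, n = 7 per family). In the second they were 41.7% ± 16.4 and 38.3% ± 7.76, and in the third 35.7% ± 8.25 and 44.0% ± 8.91. MEF-1 line 7 stood apart in the second, at 11.1%, with 33.6 to 60.4% in the remaining 6. These stretches, and the CpG groups of the next paragraphs, were singled out after their values were seen and were not tested.

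The CpGs inside the motif matches are given beside the rest of the run, with no test of the difference. The 2 CpGs of the match 2166 to 2179 bp upstream had clonal means of 47.1% ± 14.5 (MEF-1) and 50.5% ± 9.05 (MEF-2). The 3 CpGs of the farther match had 41.8% ± 17 and 38.3% ± 8.11, with MEF-1 line 7 at 11.0% and MEF-2 line 1 at 22.5% as the lowest lines of their families. The 25 other CpGs of the run that were at 20 to 80% in both parental libraries had 40.6% ± 6.77 and 46.7% ± 5.02, with MEF-1 line 7 at 34.2% and MEF-2 line 1 at 42.9%.

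The families parted at the end nearest the gene. Of the 36 CpGs of the run 5 were called, beside 20.2% of all CpGs called. The sequence of this end is shown because it holds all 5, with every measured CpG in capitals (GRCm38).
chr7:142580073-142580140, minus strand: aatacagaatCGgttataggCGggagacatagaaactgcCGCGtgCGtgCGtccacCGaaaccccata
In this sequence 4 neighbouring CpGs, at 142580090, 142580094, 142580098 and 142580100, were partly methylated in MEF-1 and almost fully methylated in MEF-2. Pooled over the 4, the MEF-1 parental library had 50.6% and its lines 1 to 7 had 32.2, 34.2, 51.4, 66.2, 34.5, 64.8 and 48.4%. The MEF-2 parental library had 91.3% and its lines had 93.1% or more. The CpG at 142580098, 1955 bp upstream, differed most, with 42.9% ± 14.7 in MEF-1 and 97.6% ± 3.03 in MEF-2 (difference -54.7 points, adjusted p = 2.5e-05, quasi-binomial F-test over all CpGs). The adjoining CpG at 142580119 went the other way, with 97.7 and 77.8%. The CpG nearest to 50% in all 16 libraries was at 142580379, 2236 bp upstream, with 51.8% ± 9.27 and 49.6% ± 6.28 and no library more than 13.6 points from 50%.

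Inside the H19 gene, methylation was patchier. A run of 15 CpGs in exons of H19 (chr7:142576882-142577979, 164 to 1261 bp downstream of the start) had 70.4% in the MEF-1 and 51.3% in the MEF-2 parental library. MEF-1 lines 1 to 7 had 61.9, 71.8, 66.8, 66.7, 68.2, 56.6 and 64.2%, and MEF-2 lines 1 to 7 had 70.2, 45.5, 52.2, 49.1, 53.6, 51.8 and 40.2%. MEF-2 line 1 was the only line of its family among the levels of MEF-1. The clonal means were 65.2% ± 4.88 and 51.8% ± 9.35 (difference 13.4 points, adjusted p = 0.0168, exact permutation test). Of the 15 CpGs 4 were called, all higher in MEF-1 (beside 20.2% of all CpGs called and 11.6% called higher in MEF-1). The CpG at 142577508 had the largest called difference of the locus among those higher in MEF-1, with 66.7% ± 25.1 in MEF-1 and 20.8% ± 11.8 in MEF-2 (adjusted p = 0.00671, quasi-binomial F-test). The remaining run, 7 CpGs farther into the gene, had 44.0 to 73.4% in the MEF-1 lines and 35.6 to 66.8% in the MEF-2 lines (adjusted p = 0.574, exact permutation test).

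Called differences went both ways at every locus. Between the families 74 of the 311 CpGs were called (23.8%, quasi-binomial F-test, adjusted p below 0.05), of which 44 were higher in MEF-1 and 30 in MEF-2. Of all measured CpGs 20.2% were called, 11.6% higher in MEF-1 and 8.53% higher in MEF-2, so the members' share was near this background. The counts were 12 at H19 (17.6%), 15 at Igf2 (25.0%), 23 at Rasgrf1 (25.8%) and 24 at Zdbf2 (25.5%). Of the runs 11 of 13 were called, 7 higher in MEF-1 and 4 higher in MEF-2, with 64.4% of all runs called (39.5% higher in MEF-1 and 25.0% higher in MEF-2). Without the 4 lines of shifted chromosome 7, 8 of the 13 were called, beside 45.1% of all runs. Families that did not overlap were seen in 6 of the 13 runs, against 33.8% of all runs. The 2 runs that were not called were the leading run of H19 and the run of 7 CpGs.

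**Figure D2:**
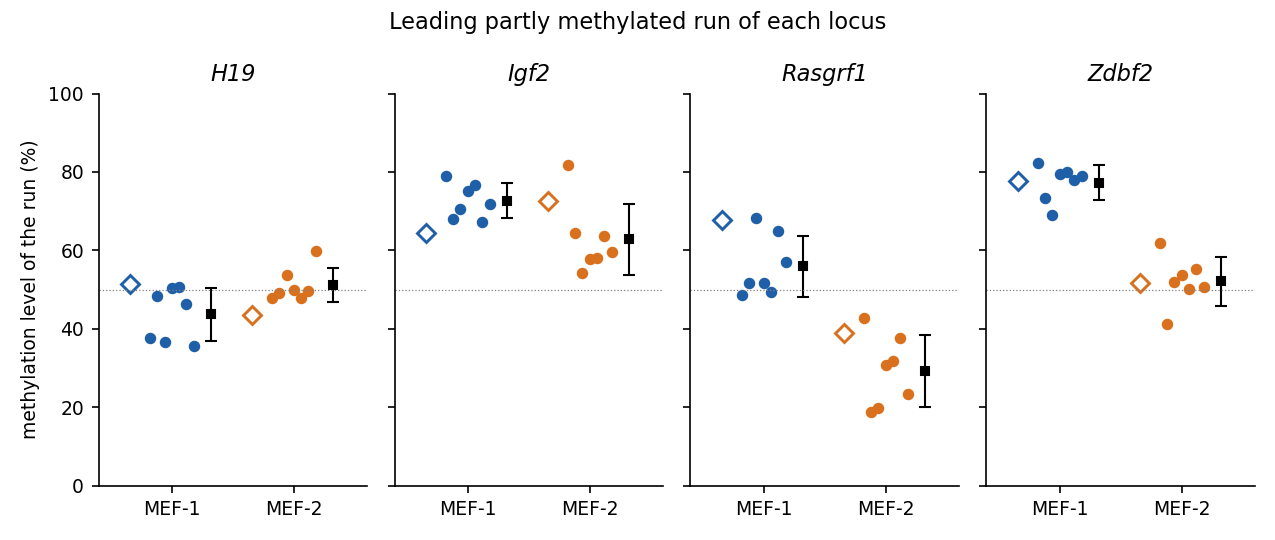
Pooled methylation level (%) of the leading run of each locus, with open diamonds for the parental libraries, points for the 7 clonal lines of each family, squares and bars for the clonal mean and SD, and a dotted line at 50%. The families overlap at H19 and Igf2 and do not overlap at Rasgrf1 and Zdbf2.

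Igf2, the growth factor gene on the far side of the insulator from the shared enhancers, had 3 short runs inside the measured part of the gene. Its leading run (chr7:142656729-142656972, 6 CpGs, 9844 to 10087 bp downstream of the start, in an intron) tied in CpG number with a run nearer to the start, and the one at the lower coordinate was taken. Its level was 64.5% in the MEF-1 and 72.6% in the MEF-2 parental library. MEF-1 lines 1 to 7 had 78.9, 67.9, 70.5, 75.3, 76.6, 67.3 and 71.9%, and MEF-2 lines 1 to 7 had 81.7, 64.4, 54.2, 57.9, 58.1, 63.8 and 59.7%. MEF-2 line 1 was the highest of all 14 lines, and the other 6 MEF-2 lines lay below every MEF-1 line. The means were 72.6% ± 4.45 and 62.8% ± 9.05 (difference 9.79 points, adjusted p = 0.0441, exact permutation test). This call ended when MEF-1 line 1, 3, 4, 5 or 7 or any MEF-2 line but line 1 was left out, with differences of 8.36 to 10.1 points, and without the 4 lines with a shifted chromosome 7 (10.4 points, adjusted p = 0.165, exact permutation test).

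Opposite differences side by side made up the run. The CpGs at 142656854, 142656880 and 142656972 were called higher in MEF-1 and that at 142656935 higher in MEF-2. At 142656880 the means were 54.0 and 10.3%, and at 142656935 they were 74.4 and 97.6%. The tied run (chr7:142665817-142666325, 491 to 999 bp downstream of the start) had 76.1% ± 4.53 in MEF-1 and 56.1% ± 5.06 in MEF-2, and here the families did not overlap (difference 19.97 points, adjusted p = 0.00172, exact permutation test). This run holds the Igf2 CpG nearest to 50% in all libraries, at 142666004, with 47.2% ± 14.1 and 44.9% ± 8.25.

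The middle run of Igf2 is shown because adjoining CpGs in it differed in opposite directions. Its measured CpGs are in capitals, and it also lies in an intron of the antisense gene Igf2os.
chr7:142664024-142664063, minus strand: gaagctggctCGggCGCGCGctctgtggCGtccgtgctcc
The CpG at 142664034 averaged 56.7% over the MEF-1 lines and 3.56% over those of MEF-2. Only 10 bp away, that at 142664044 had 12.8% ± 8.05 in MEF-1 and 69.9% ± 23.2 in MEF-2 (difference -57.1 points, adjusted p = 0.000937, quasi-binomial F-test). The largest difference of the locus in the other direction lay outside the runs, at 142660424 in an Igf2 intron that is also an exon of Igf2os. There the MEF-1 parental library had 41.9% and the MEF-1 lines had 50.0 to 64.7%, while the MEF-2 parental library had 4.17% and its lines 0 to 3.45% (difference 58.7 points, adjusted p = 8.94e-07, quasi-binomial F-test).

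**Figure D3:**
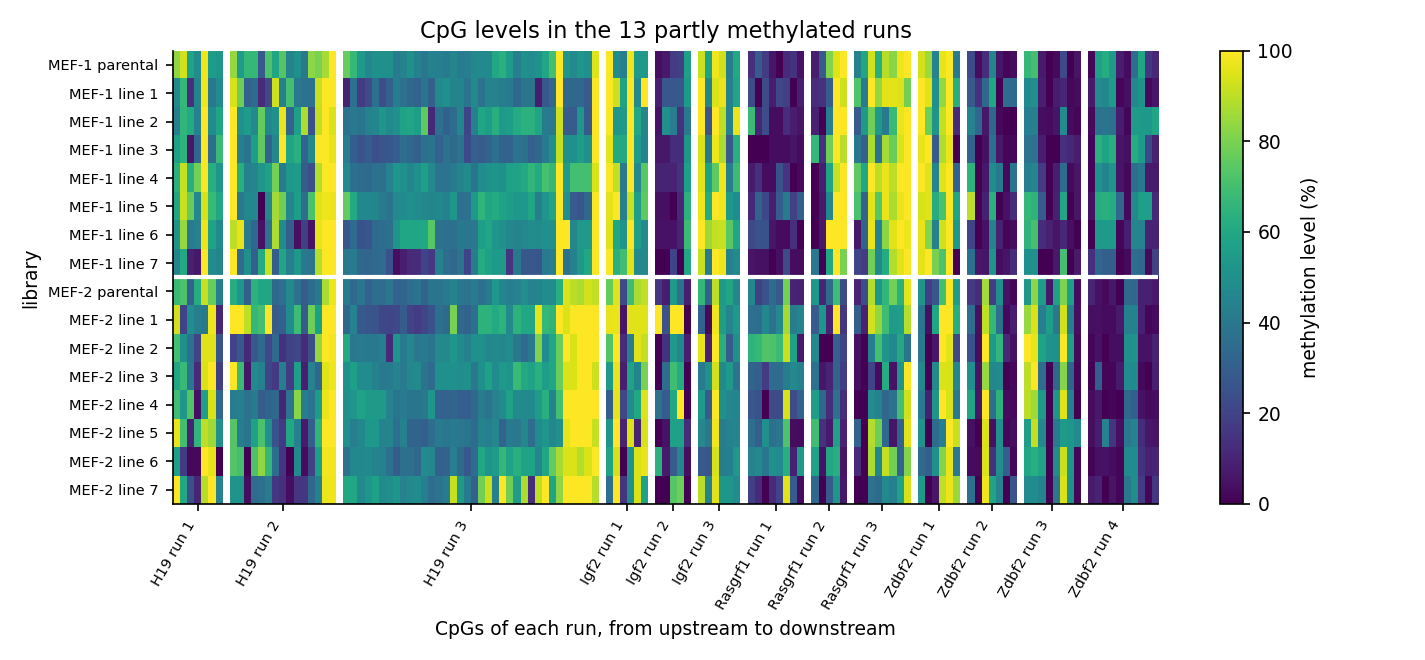
Methylation level (colour, %) of each CpG of the 13 runs (columns) in the 16 libraries (rows, ordered by family), with white gaps between runs and between families. The third H19 run shows a long block of middle levels, and most runs of Igf2, Rasgrf1 and Zdbf2 hold CpGs of quite different levels side by side.

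The leading run of Rasgrf1 differed more between the families than those of H19 and Igf2, though the loci were not tested against each other. This run (chr9:89910867-89910982, 5 CpGs, 959 to 1074 bp downstream of the start, in an intron) had 67.7% in the MEF-1 and 39.0% in the MEF-2 parental library. MEF-1 lines 1 to 7 had 48.6, 51.6, 68.1, 51.6, 49.3, 64.9 and 57.1%, and MEF-2 lines 1 to 7 had 42.7, 18.7, 19.9, 30.9, 31.8, 37.8 and 23.3%. The families did not overlap. The means were 55.9% ± 7.80 and 29.3% ± 9.11 (difference 26.6 points, adjusted p = 0.00172, exact permutation test). The part of the run with its called CpGs is shown with the 4 measured ones in capitals.
chr9:89910936-89910993, plus strand: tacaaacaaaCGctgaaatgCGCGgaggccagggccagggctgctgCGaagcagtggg
The last of these, at 89910982, had 80 to 100% in the MEF-1 lines and 5.26 to 21.1% in the MEF-2 lines (difference 82.0 points, adjusted p = 2.95e-06, quasi-binomial F-test). The means at 89910958 were 98.8 and 53.5%, while at 89910946 they were 7.09 and 15.8%. The run thus held CpGs near 0, near 100% and between them.

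The run upstream of the Rasgrf1 start went the other way. It held 8 CpGs at 1156 to 1201 bp upstream, in intergenic sequence. Of these 3 were called, all higher in MEF-2 (beside 20.2% of all CpGs called and 8.53% called higher in MEF-2). The run is shown for them.
chr9:89908697-89908763, plus strand: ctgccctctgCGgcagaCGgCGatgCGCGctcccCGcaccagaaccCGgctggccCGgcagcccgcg
The MEF-1 parental library had 11.5% and its lines had 2.43 to 24.6%, with a mean of 11.4% ± 7.15. The MEF-2 parental library had 30.6% and its lines had 25.3 to 61.0%, with a mean of 39.9% ± 11.8 (difference -28.5 points, adjusted p = 0.00172, exact permutation test). The families did not overlap, although the highest MEF-1 line and the lowest MEF-2 line were less than a point apart. The CpG at 89908731 differed most, with 16.7% ± 13.3 and 78.0% ± 20 (adjusted p = 0.00122, quasi-binomial F-test). The last run, deep in the gene (chr9:89984103-89984382), had 76.1 and 45.1% (difference 31.1 points, adjusted p = 0.00296, exact permutation test). The Rasgrf1 CpG nearest to 50% in all libraries, at 89993637 in an intron, still ranged from 17.4 to 72.0% in the MEF-2 lines.

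Zdbf2 had 4 runs, all upstream of its start, with little of the gene body measured. Whether any of these runs lies in its paternally methylated region was not tested. The leading one was the most distant (chr1:63239681-63239809, 6 CpGs, 33456 to 33584 bp upstream, intergenic) and had 77.6% in the MEF-1 and 51.7% in the MEF-2 parental library. MEF-1 lines 1 to 7 had 82.2, 73.3, 69.0, 79.5, 80, 77.8 and 79.0%, and MEF-2 lines 1 to 7 had 61.8, 41.1, 52.0, 53.8, 50.3, 55.2 and 50.6%. The families did not overlap, and the mean of each lay less than a point from its parental library. The means were 77.3% ± 4.54 and 52.1% ± 6.22 (difference 25.2 points, adjusted p = 0.00172, exact permutation test). The relative coverage of chromosome 1 was lowered in MEF-1 lines 5 (0.827) and 7 (0.882), and without them the difference was 24.3 points (adjusted p = 0.00418, exact permutation test). The stretch with both called CpGs is shown, its 2 measured CpGs in capitals.
chr1:63239671-63239730, plus strand: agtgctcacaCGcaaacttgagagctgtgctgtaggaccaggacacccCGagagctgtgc
At 63239719, the latter CpG, the lines had 77.8 to 100% in MEF-1 and 0 to 30.0% in MEF-2 (difference 86.1 points, adjusted p = 5.88e-05, quasi-binomial F-test). The means at 63239791, in the same run, were 99.6 and 96.8%. A pooled level of 52.1% in MEF-2 was therefore an average of low, middle and high CpGs.

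The next run, 20247 to 20455 bp upstream, held the CpG that differed most in the other direction. The stretch from this CpG on is shown with its 3 measured CpGs in capitals.
chr1:63252846-63252924, plus strand: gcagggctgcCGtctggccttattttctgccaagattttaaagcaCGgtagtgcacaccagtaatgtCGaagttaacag
The first, at 63252856, had 9.91% ± 10.4 in MEF-1 and 94.5% ± 5.59 in MEF-2 (difference -84.6 points, adjusted p = 3.48e-06, quasi-binomial F-test). The next, 35 bp away, did not differ by the test, with 48.3 and 40.1%. The third had 8.81 and 51.2% and was called.

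The 2 runs nearest to Zdbf2 lay in the transcript Gm11608 and moved in opposite directions within a short distance. The run 741 to 1123 bp upstream was lower in MEF-1, with 12.1 to 24.4% in the MEF-1 lines and 36.7 to 51.8% in the MEF-2 lines (difference -27.3 points, adjusted p = 0.00172, exact permutation test). The run of 10 CpGs 233 to 529 bp upstream was higher in MEF-1. Its parental libraries had 31.2 and 12.2%. The lowest, median and highest MEF-1 lines had 20, 27.7 and 40.5%, and those of MEF-2 had 8.33, 13.7 and 18.1%. The families did not overlap in either of these runs, and the means of the nearer one were 29.7% ± 6.73 and 13.7% ± 3.08 (difference 16 points, adjusted p = 0.00172, exact permutation test). Parts of this run are shown for the alternation within it, with measured CpGs in capitals.
chr1:63272792-63272822, plus strand: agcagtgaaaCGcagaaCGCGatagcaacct
chr1:63272919-63272976, plus strand: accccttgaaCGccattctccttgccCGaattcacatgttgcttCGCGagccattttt
The 3 CpGs of the first sequence averaged 50.3, 48.0 and 50.5% over the MEF-1 lines and 9.68, 7.56 and 4.82% over those of MEF-2. In the second sequence the first CpG had 3.50 and 43.5%, the next 47.0 and 44.9%, and the one after it 48.0 and 9.43%. The middle one of these, at 63272945, was the Zdbf2 CpG nearest to 50% in all libraries. Single CpGs near 50% in 1 family were thus low in the other, with a CpG of the opposite difference close by.

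**Figure D4:**
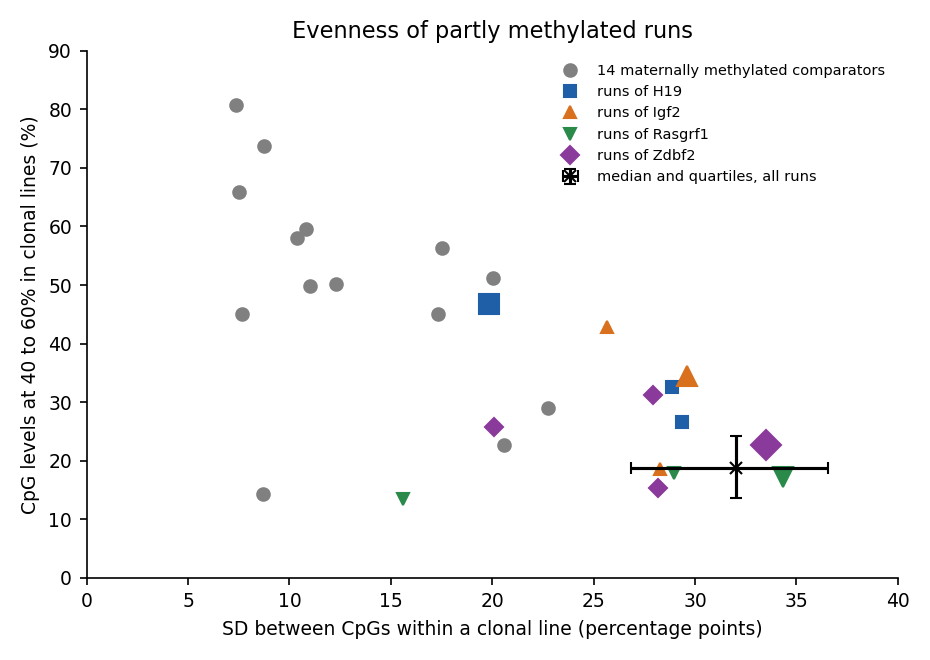
Share of clonal CpG levels at 40 to 60% (%) against the SD between CpGs within a clonal line (percentage points), for the runs of the 4 loci (larger symbols for leading runs), the runs of 14 maternally methylated loci (grey) and the median and quartiles of all runs (cross). The leading H19 run lies at 46.8% and 19.8 points, and those of Igf2, Rasgrf1 and Zdbf2 at 29.6 points or more.

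The leading H19 run was also set beside runs at 14 maternally methylated imprinted loci. For each locus this was the run with the most CpGs that overlapped 2 kb on either side of a transcript start. Whether each such run is the maternally methylated region itself was not tested. The SD between CpGs of the H19 run lay near the upper end of their range, while those of the other 3 leading runs lay above it. Shorter runs within this range were the Rasgrf1 run upstream of the start (15.6 points) and the Zdbf2 run of 10 CpGs (20.1 points). The leading runs of Igf2, Rasgrf1 and Zdbf2 had 34.5, 17.1 and 22.6% of their CpG levels at 40 to 60% and an SD between CpGs of 29.6, 34.4 and 33.5 points. The same measures in the runs at 14 maternally methylated loci had medians of 50.6% (14.3 to 80.7%) and 10.9 points (7.36 to 22.7). Of the 14, 9 had a larger share than H19 and 11 a smaller SD. A larger SD was seen only at Snrpn (22.7 points), Grb10 (20.6) and Airn (20.03). Unlike the leading runs, the comparison runs did not have to be partly methylated in both parental libraries, and those of Snrpn, Grb10 and Nnat were not. Among the comparison runs that were, only that of Airn had a larger SD than H19. Between the families 4 of the 14 were called, all higher in MEF-1, which were Kcnq1ot1, Snrpn, Nnat and Peg13 (beside 64.4% of all runs called and 39.5% called higher in MEF-1). The measure of evenness was set against the other runs as a description, with no test.

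Kcnq1ot1, a maternally methylated control region on the same chromosome, was set against H19 line by line. Its run (chr7:143295498-143296904, 56 CpGs) had 45.4 and 43.8% in the parental libraries. MEF-1 lines 1 to 7 had 52.0, 44.2, 58.9, 45.7, 42.6, 56.9 and 52.8%, and MEF-2 lines 1 to 7 had 40.9, 35.8, 37.3, 41.9, 34.7, 31.8 and 43.4%. H19 was the higher of the 2 in 7 of 7 MEF-2 lines, by 13.1 points ± 4.20 (exact sign-flip test, two-sided, adjusted p = 0.0312 over 2 families). This difference was 22.7 points with a minimum of 20 reads, and leaving out any 1 MEF-2 line ended the call (12.4 to 14.2 points, adjusted p = 0.0625, exact sign-flip test, the smallest that 6 lines allow here). Over the 30 H19 CpGs at 20 to 80% in both parental libraries the MEF-2 mean was 46.2%, against 38.0% at Kcnq1ot1. Lines 1 and 4 then had 42.0 and 43.9%, close to their Kcnq1ot1 levels. This narrower set was not tested. In MEF-1 H19 was higher in 3 of 7 lines and lower in 4, with a mean H19 minus Kcnq1ot1 difference of -6.74 points ± 12.2 (adjusted p = 0.188, exact sign-flip test). Single MEF-1 lines left out gave -9.22 to -4.14 points. The 4 MEF-1 lines in which H19 was lower were lines 1, 3, 6 and 7, the same lines whose chromosome 7 coverage was off by more than 0.1. Without them the difference in MEF-1 turned to 5.67 points (3 lines, smallest possible p 0.25). Peg3, a maternally methylated gene elsewhere on chromosome 7, had 59.8, 59.8, 45.1, 51.7, 43.4, 53.0 and 45.6% in MEF-1 lines 1 to 7, in an order other than those of H19 and Kcnq1ot1. Snrpn, also on this chromosome, had 81.2% ± 3.71 in MEF-1 and 52.8% ± 5.73 in MEF-2.

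**Figure D5:**
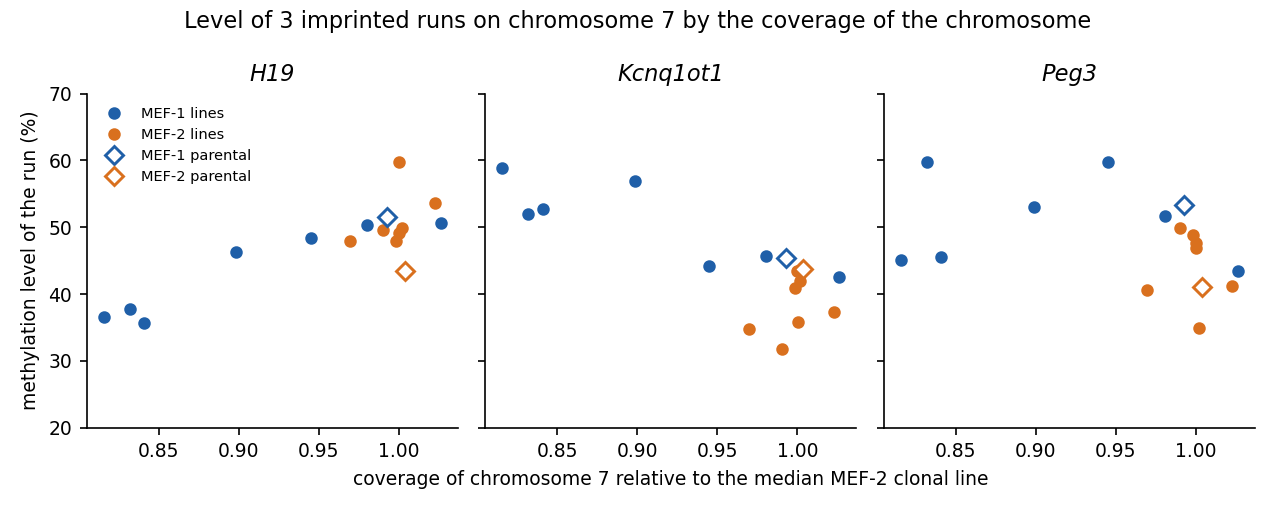
Methylation level (%) of the leading H19 run and of the Kcnq1ot1 and Peg3 runs against the coverage of chromosome 7 relative to the median MEF-2 clonal line, with points for clonal lines and open diamonds for parental libraries. MEF-1 lines 1, 3, 6 and 7, at a relative coverage of 0.816 to 0.899, have a higher level at Kcnq1ot1 than at H19.

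The clonal lines were also set against the parental library they came from, in 8 comparisons over the 4 leading runs. At H19 all 7 MEF-1 lines were lower than their parental library, by a clonal minus parental mean of -7.85 points ± 6.75, and all 7 MEF-2 lines were higher, by 7.68 points ± 4.25 (exact sign-flip tests over lines, adjusted p = 0.0417 for each). These tests take the parental level as fixed. It comes from 1 library, whose error moves all 7 differences together. The runs were also chosen by their levels in the parental libraries, which the tests do not allow for. The differences are therefore given with no call. At Igf2 all 7 MEF-1 lines were higher, by 8.17 points ± 4.45 (adjusted p = 0.0417, exact sign-flip test), and in MEF-2 the difference was -9.78 points ± 9.05 (adjusted p = 0.0833, exact sign-flip test). That of MEF-2 was -5.97 points with a minimum of 20 reads and -14.3 with thinned reads. At Rasgrf1 the differences were -11.8 points ± 7.80 and -9.73 points ± 9.11 (adjusted p = 0.0625 and 0.075, exact sign-flip tests), where that of MEF-1 was -7.02 points with unweighted CpGs and -0.29 with thinned reads. At Zdbf2 they were -0.31 points ± 4.54 and 0.39 points ± 6.22 (adjusted p = 0.891 for both, exact sign-flip tests). The clonal lines of the families thus lay on opposite sides of their parental libraries at H19. The 3 adjusted p-values of 0.0417 rose above 0.05 with unweighted CpG levels, with coverage minima of 5 or 20 reads and with thinned reads, where the mean at Igf2 was 0.66 points with 20 reads and 0 with thinned reads. They did so too when any line of the same family was left out, except at H19 in MEF-2 without line 1. Without MEF-2 line 1 the differences at Igf2 and Rasgrf1 in MEF-2 were -12.9 and -12 points (adjusted p = 0.0417 for each, exact sign-flip test). Without the lines of shifted chromosome 7 the H19 difference in MEF-1 was -1.71 points, over 3 lines that allow no p below 0.25.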

How the data were processed

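tcBS-seq libraries of 2 parental and 14 clonal MEF lines were grouped by the labels of the samples. According to the study's methods, the authors trimmed reads with Trim Galore 0.6.0, used Bismark for alignment to mm10, removed biased read ends and alignments of low quality, extracted the calls with the Bismark methylation extractor and analysed them in R 3.6.1. Removal of PCR duplicates is not given in the sources used here. The deposited library tables hold counts of methylated and unmethylated reads per position, with no normalization. The deposited series table, made by the authors, carries the same counts where every one of the 16 libraries had 10 or more reads, without chromosomes 12, 18, 19, X and Y. All 1203687 of its CpGs had equal counts in the library tables. It also holds a percent methylation and a coverage, which follow from the counts and were not used, and the fidelity (a fraction of the clonal lines), a neighbour similarity score and the number of CpGs within 100 bp, which were taken as deposited by the authors.

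Levels, runs (segments without a gap over 500 bp, smoothing over 5 CpGs) and tests were computed with Python 3.11.15, numpy 2.4.6, scipy 1.17.1 and pandas 2.3.3, and checked on simulated data. Pooled run levels were compared between 7 and 7 clonal lines by a two-sided exact permutation test, and counts of each CpG by a quasi-binomial logistic model (F-test), both adjusted by Benjamini and Hochberg over the whole table. Clonal lines were set against their parental library by two-sided exact sign-flip tests. Clonal lines were grown from separate cells of 1 culture, so p-values measure only the spread between these lines. Named were the leading runs, other runs of at least 10 CpGs, and in each window the called CpGs with the largest difference in each direction and the CpG nearest to 50% in all libraries. Other runs and CpGs were named after their values were seen. The members, the 14 comparison loci and the lists were chosen with earlier results of these data known. Relative coverage was the mean coverage of a chromosome, scaled to the median autosome of its library and to the median MEF-2 clonal line. Alternatives were a coverage minimum of 20 or 5 reads, unweighted CpGs, thinning to 10 reads, bounds of 30 to 70%, a partly methylated level in both parents, a replicate block, and lines left out. Sequences are from the GRCm38 reference and promoters from RefSeq.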

Additional observations from a re-analysis of the deposited data

Results flagged for a closer look

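Within the groups of 7 clonal lines, 5 of 50 had a line far from the others by Dixon's criterion at the 95% level, where chance gives about 1 in 20, or 2.5 of 50. MEF-2 line 1 had 81.7% in the leading run of Igf2, with the next line at 64.4%. Single CpGs gave the other 4 cases. At the Igf2 CpG 142666004 MEF-2 line 2 had 28.6%, at the Zdbf2 CpG 63239719 MEF-2 line 6 had 30.0%, at the Zdbf2 CpG 63252856 MEF-1 line 1 had 33.3%, and at the Zdbf2 CpG 63272945 MEF-2 line 4 had 30.0%.

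The clonal minus parental difference had opposite signs in the families at 2 loci. Its MEF-1 minus MEF-2 value was -15.5 points at H19, where all 7 lines of MEF-1 fell below and all 7 of MEF-2 above their parental library, and 17.95 points at Igf2, where 7 of 7 lay above and 6 of 7 below. An exact permutation test of 7 against 7 lines gave adjusted p = 0.00291 and 0.00486 (over 5 comparisons). It takes each parental level, from 1 library, as free of error. The runs were also chosen from these libraries, so no call is drawn from the test. At H19 the clonal lines alone differed by -7.44 points, without a call, and the rest of the -15.5 points comes from the parental libraries. The difference between H19 and Kcnq1ot1 within a line was -19.9 points in MEF-1 minus MEF-2 (adjusted p = 0.00437 over 5 comparisons, exact permutation test of 7 against 7 lines). MEF-1 lines 1, 3, 6 and 7, with a relative chromosome 7 coverage of 0.816 to 0.899, enter each of these values. Without them the H19 minus Kcnq1ot1 difference in MEF-1 was 5.67 points, against 13.1 in MEF-2, and the difference between the families was not tested without them.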

How the results depend on the processing

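The family differences at Rasgrf1 (24.6 to 31.1 points) and Zdbf2 (21.8 to 32.7) kept direction and call wherever a value was obtained. That of H19 passed the exact permutation test with unweighted CpGs (-9.25 points, adjusted p = 0.0155), thinned reads (-8.49, 0.0348) and without MEF-1 lines 1, 4 and 5 (-9.37, 0.0211). Its adjusted p ranged from 0.0155 to 0.776. Leaving out each line in turn gave -8.60 to -6.01. The call at Igf2 was lost with unweighted CpGs (8.96 points), a minimum of 5 reads (7.04), thinned reads (9.29), without lines 1, 4 and 5 (6.55) and without lines of shifted chromosome 7 (10.4), and single lines left out gave 8.36 to 12.9. With both parents partly methylated the matching run gave 16.1 points and kept the call (adjusted p = 0.0125, exact permutation test). Same-numbered lines of the families did not deviate together (correlations -0.0159 to 0.0064, none best with its own number). The replicate block therefore pairs lines by a number alone. With it the Igf2 difference was 9.79 points (adjusted p = 0.0526, exact test), and 71 CpGs were called (22.8%, against 17.2% of all CpGs).

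For clonal minus parental levels, the adjusted p at H19 rose above 0.05 with equal weights (-7.31 in MEF-1, 7.05 in MEF-2), with a minimum of 20 reads (-9.57 and 4.60), of 5 reads (-6.90 and 7.77) and thinned reads (-6.83 and 6.39), and without lines of shifted chromosome 7 (-1.71 in MEF-1). That at Igf2 in MEF-1 did so at 6.96, 0.66, 8.17 and 0.00 under the same 4 choices in this order, and at 8.81 without the shifted lines. At Zdbf2 the small differences changed sign in MEF-1 with a minimum of 20 reads (4.32) and thinned reads (0.24), and in MEF-2 with a minimum of 20 reads (-0.85). Single lines left out gave, in MEF-1 and MEF-2, -9.01 to -6.51 and 6.25 to 8.21 at H19, 7.12 to 9.07 and -12.9 to -8.35 at Igf2, -13.9 to -10.6 and -12 to -7.96 at Rasgrf1, and -1.13 to 1.06 and -1.23 to 2.22 at Zdbf2. The sign at Zdbf2 turned without MEF-1 line 2 (0.35) or 3 (1.06) and without MEF-2 line 1 (-1.23) or 6 (-0.12). With 6 lines the smallest unadjusted p is 0.03125, which limits these p-values. H19 minus Kcnq1ot1 was 12.4 to 14.2 points in MEF-2 with single lines left out, each time without a call, and turned to 5.67 in MEF-1 without the shifted lines. With a minimum of 20 reads it was 22.7 in MEF-2. Called CpGs numbered 30 with a minimum of 20 reads, where 121 of the 311 CpGs remained (24.8%, against 23.2% of all CpGs). Called runs numbered 10 to 12 of 13 with single lines left out, 9 without MEF-1 lines 1, 4 and 5 (52.7% of all runs) and 8 without the shifted lines (45.1%). The causes of these changes were not tested. No matching run was found for Igf2, Rasgrf1 or Zdbf2 with a minimum of 20 reads, for Rasgrf1 with bounds of 30 to 70%, or for Rasgrf1 and Zdbf2 with both parents partly methylated. Clonal minus parental at Rasgrf1 with 20 reads had no CpG left. Using only CpGs at 20 to 80% in both parental libraries, an alternative added after seeing the data, gave -5.13 points at H19.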
